A study of Mus musculus with 8 samples.

Results

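The genes described here are 10 transporters that carry amino acids across the plasma membrane. They are Slc7a11, Slc7a5, Slc3a2, Slc7a1, Slc38a1, Slc38a2, Slc1a4, Slc1a5, Slc6a9 and Slc43a1. The list was chosen on the same 8 libraries, with the difference between acetate and vehicle already known. Of the 10, 9 were measured among the 20189 genes of the table, and Slc43a1, which carries leucine and other large neutral amino acids, had no expression value analysed here.

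The cells were 4T1, a line from a mouse mammary carcinoma that the labels give as wild type, and their RNA was sequenced. All cells were kept in DMEM with 10% serum and received either water (vehicle) or 5 mM acetate for 48 h. Each group had 4 libraries, and a vehicle and an acetate library shared each replicate number, 1 to 4. Both groups therefore rest on a single cell line in culture, and they differ by 1 dose at 1 time. A unit below is 1 normalised read after scaling each library to 20000000, and log2 differences are on log2(value + 1), acetate minus vehicle.

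Cells take up most amino acids through such carriers, several of which exchange one amino acid for another across the membrane. The genes of many of them are known targets of Atf4, a transcription factor made when amino acids run short or when the endoplasmic reticulum is under stress. In tumour cells these carriers are best known for supplying glutamine, leucine, arginine and the cystine from which glutathione is built.

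Sequence upstream of the genes is shown first because 2 of the members carry, before or across their start, the letters of the C/EBP-ATF composite element that Atf4 is known to bind. RefSeq promoter windows of 300 bases, lying mostly upstream of the start, were matched for 7 of the 10 members on build GRCm38.p6. None was matched for Slc7a5, Slc38a1 and Slc1a5. The 7 had 10 windows, more than 1 for Slc6a9 and Slc7a1, against 32851 windows over all 27025 genes. The end of the Slc3a2 window matched none of its annotated transcripts. The motif searched was TGATGNAAN on both strands. It was held by the windows of Slc7a11 and Slc1a4, that is 2 of 7 members, and by 4.5% of the 27025 genes with a window. The Slc7a11 stretch lies at chr3:50443623-50443719 and the Slc1a4 stretch at chr11:20332699-20332758, both on the minus strand and written 5′ to 3′ with the motif letters in capitals.
Slc7a11: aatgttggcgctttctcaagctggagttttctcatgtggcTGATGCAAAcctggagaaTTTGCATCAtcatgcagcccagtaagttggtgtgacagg
Slc1a4: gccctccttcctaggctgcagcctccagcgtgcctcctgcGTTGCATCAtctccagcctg
The Slc7a11 stretch held 2 matches, 1 on each strand with 9 bases between them, beginning 66 and 48 bases before the start. The Slc1a4 stretch held 1 match, on the opposite strand, beginning 5 bases before the start and running across it. The core of the antioxidant response element, TGACNNNGC, was in the windows of Slc38a2, Slc43a1, Slc6a9 and Slc7a1, 4 of 7 members, and in those of 14% of all genes. The E-box CACGTG was in the window of Slc43a1 alone among the members and in those of 8.09% of all genes. These are matches of letters and no binding was measured. Sequence outside the windows was not searched, so a member without a match here is not shown to lack the motif.

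The libraries held 19.9 to 29.3 M reads (M, mega) over the genes of the table. The epithelial markers Epcam, Krt8, Krt18, Krt19 and Cdh1 were all present, with a summed level of 42130 to 59632 units in vehicle and 44422 to 60637 units in acetate. The endothelial markers, of which 4 of 5 were measured, summed to at most 10.5 units in any library. The immune markers, 2 of 5 measured, summed to 69.1 to 192 units, nearly all of it Cd68. The fibroblast markers, 4 of 5 measured, summed to 233 to 1523 units in vehicle and to 396 to 1998 units in acetate, nearly all of it Pdgfra. Their part in the results was not tested. The libraries of replicate 1 stood apart: of 10840 genes with a mean above 64 units, 341 lay more than 4-fold from the mean of the other experiments, against 66 for replicate 4 and at most 3 for replicates 2 and 3. In bulk RNA, fewer cells of a type and less RNA per cell cannot be told apart.

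Of the 9 measured transporter genes, 8 were lower with acetate in each of the 4 pairs, by 10.5% to 28.4% on average, and Slc38a2 was lower in 2 pairs and higher in 2. The median over the 9 genes was -0.27 on the log2 scale, with medians of -0.14, -0.39, -0.22 and -0.26 in pairs 1 to 4. Over all genes the median was 0.02. Of all genes, 11.4% were lower in 4 of 4 pairs. Without the libraries of replicate 1 the median over the 9 genes was -0.29. Because the list was chosen on this contrast, these are descriptions. No p-value of acetate is given for a member, and counts of members called below are descriptions too.

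**Figure D1:**
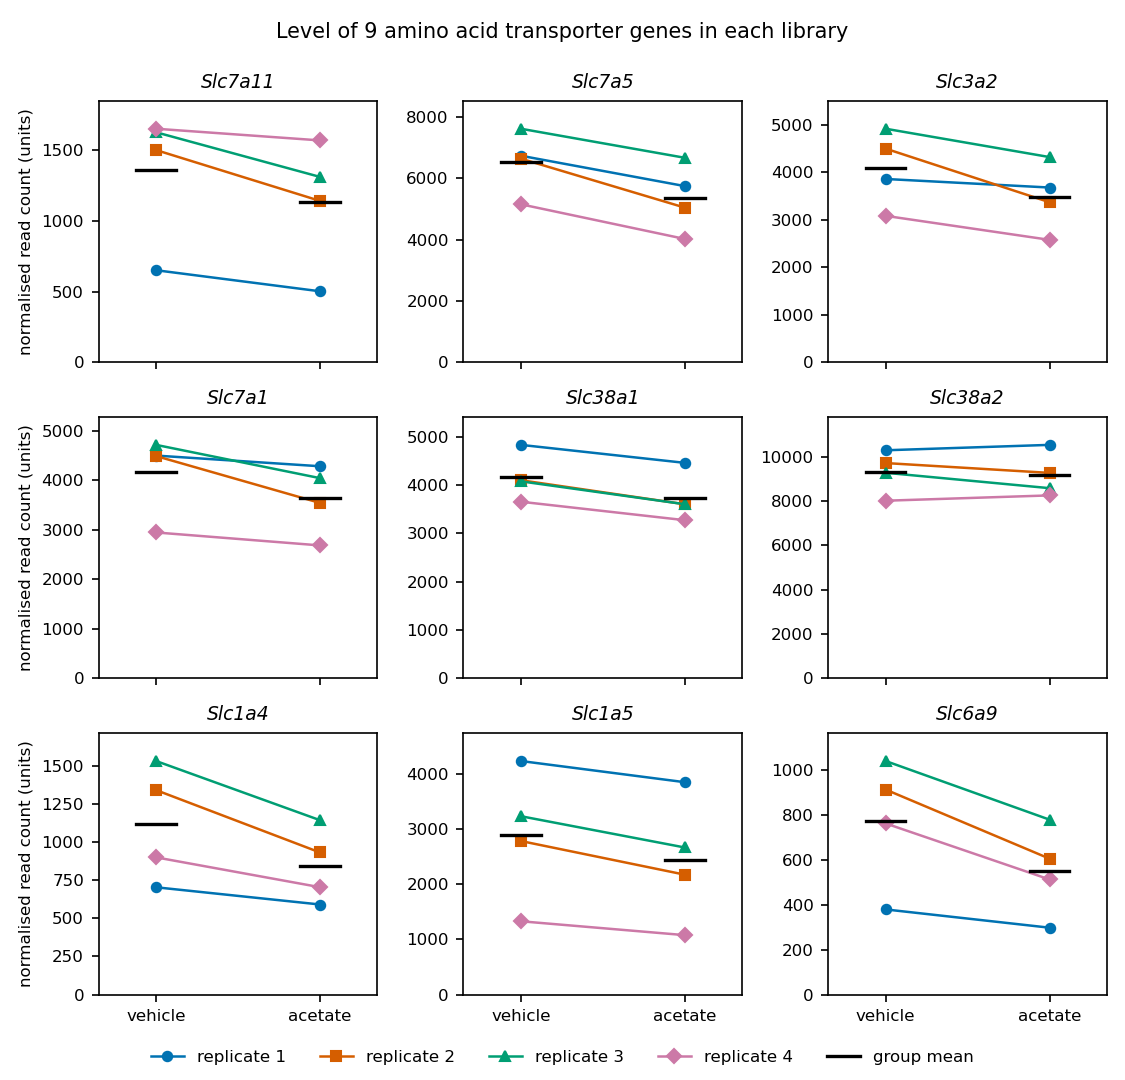
Normalised read count of the 9 measured transporter genes in each library (y axis, units, from 0), with vehicle on the left and acetate on the right. Lines join libraries of the same replicate number and black bars are group means over 4 libraries. The vehicle and acetate ranges overlap for each gene, while the lines fall in all 4 pairs for each gene but Slc38a2.

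The members were first compared without regard to pairs. In that comparison limma called 0% of the 20189 genes (0 genes) at an adjusted p of 0.05, the members included, and 353 genes had an unadjusted p under 0.05. EdgeR on the recovered reads also called 0 genes and DESeq2 called 7, none of them a member. With the replicate number as a block, limma called 2.65% of all genes lower with acetate and 5.99% higher, 8.64% in either direction. In the same fit 8 of the 9 members passed as lower and Slc38a2 did not pass. Nothing is read from that count, since the members were picked on this difference.

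Slc7a11 and Slc7a5 are light chains that reach the cell surface only when joined to the heavy chain Slc3a2. Slc7a11 brings cystine in and lets glutamate out. Its gene spans chr3:49892526-50443614. Slc7a11 measured 651, 1501, 1627 and 1652 units in vehicle replicates 1 to 4, and 502, 1141, 1311 and 1569 units in the acetate libraries of the same numbers. Replicate 1 was far below the rest in both groups, so the groups overlapped widely. The within-pair differences were -0.37, -0.39, -0.31 and -0.07, a mean of -0.29 ± 0.15 (SD, n = 4 pairs), or 18.1% lower. The fall was smallest in pair 4, where the level was highest.

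Slc7a5 imports leucine and other large neutral amino acids in exchange for glutamine, and its gene spans chr8:121881150-121907694. Its vehicle libraries held 6730, 6635, 7609 and 5149 units and its acetate libraries 5740, 5039, 6663 and 4018 units. Replicate 3 was highest and replicate 4 lowest in both groups. The differences were -0.23, -0.40, -0.19 and -0.36, a mean of -0.29 ± 0.10 (SD, n = 4 pairs), or 18.4% lower. Treatment held 27.5% of the variance of Slc7a5, the largest share among the 9 members.

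The heavy chain Slc3a2, spanning chr19:8706882-8723369, does not carry amino acids itself but brings its light chains to the membrane. Vehicle libraries held 3855, 4493, 4912 and 3080 units and acetate libraries 3675, 3366, 4316 and 2575 units. The differences were -0.07, -0.42, -0.19 and -0.26, a mean of -0.23 ± 0.15 (SD, n = 4 pairs). The order of the replicates in vehicle was that of Slc7a5 at both ends, with 3 highest and 4 lowest.

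Heavy and light chains were set side by side as ratios of units per kilobase of exon, which leave out the scaling of the library. Slc7a5 stood at 1.53 ± 0.115 times Slc3a2 in vehicle and 1.47 ± 0.0287 times in acetate (SD, n = 4). That ratio was lower in 3 of 4 pairs, with a mean log2 difference of -0.06 ± 0.07. Slc7a11 stood at 0.0868 ± 0.0381 times Slc3a2 in vehicle and 0.088 ± 0.0496 times in acetate, lower in 2 of 4 pairs, with a mean log2 difference of -0.06 ± 0.18. For both light chains among the members the shift was smaller than its SD over pairs. Both parts of these ratios were chosen for being lower, so a small shift was favoured by the choice. Whether the chains kept their proportions was not tested.

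Slc7a6 and Slc7a7 are further light chains of Slc3a2 that exchange cationic for neutral amino acids, and neither belongs to the 10. The ratio of Slc7a6 to Slc3a2 was 0.354 ± 0.148 in vehicle and 0.411 ± 0.129 in acetate, higher in 4 of 4 pairs by 0.25 ± 0.15 on the log2 scale. That of Slc7a7 was 0.019 ± 0.00944 in vehicle and 0.0272 ± 0.0134 in acetate, higher in 4 of 4 pairs by 0.50 ± 0.13. The level of Slc7a6 itself moved by 0.01 (blocked limma, adjusted p = 0.856) and that of Slc7a7 by 0.27 (adjusted p = 0.173), so neither passed. The denominator of these ratios is a member that was chosen for being lower, so they are given without a test.

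**Figure D2:**
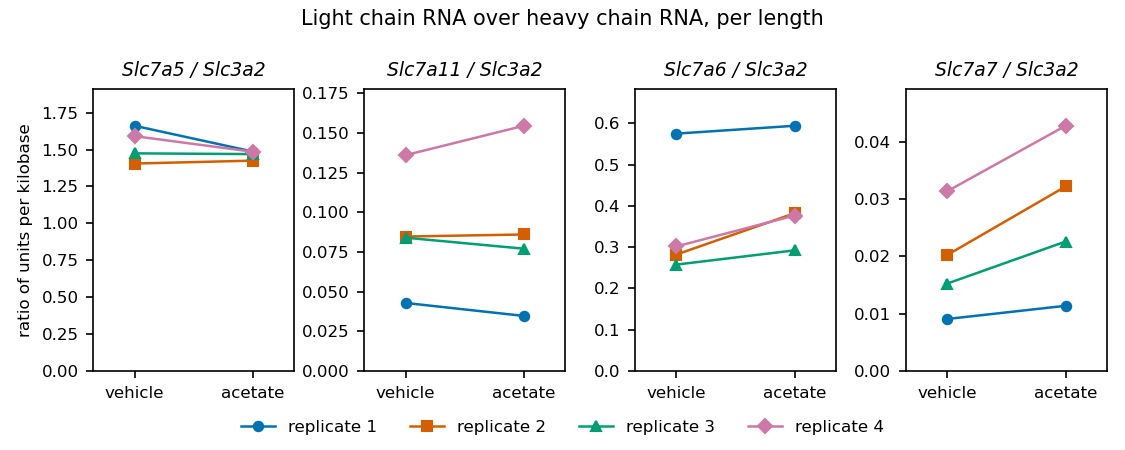
Ratio of light chain to Slc3a2 RNA per kilobase of exon (y axis, from 0, a scale for each panel) in vehicle and acetate, with lines joining libraries of the same replicate number. Slc7a5 lies between 1.41 and 1.66 in all 8 libraries, Slc7a11 has no common direction, and Slc7a6 and Slc7a7 are higher with acetate in all 4 pairs.

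Slc7a1 carries arginine and lysine and works without a heavy chain. Its gene spans chr5:148327410-148399904. It measured 4501, 4491, 4717 and 2948 units in vehicle and 4285, 3544, 4045 and 2687 units in acetate. Vehicle replicates 1 to 3 lay close together and replicate 4 stood well below them. The differences were -0.07, -0.34, -0.22 and -0.13, a mean of -0.19 ± 0.12 (SD, n = 4 pairs), or 12.5% lower.

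Slc38a1 and Slc38a2 move small neutral amino acids such as glutamine and alanine with sodium. They are neighbours on chromosome 15, at chr15:96571418-96642913 and chr15:96687392-96699730, both on the minus strand. Slc38a1 measured 4830, 4099, 4076 and 3655 units in vehicle and 4458, 3602, 3603 and 3273 units in acetate. Its differences of -0.12, -0.19, -0.18 and -0.16 gave a mean of -0.16 ± 0.03 (SD, n = 4 pairs), the smallest spread over pairs among the members. The remainder after replicate and treatment was 0.625% of its variance.

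Slc38a2, the neighbouring gene, held 10290, 9713, 9276 and 8016 units in vehicle and 10534, 9270, 8581 and 8255 units in acetate. The differences were 0.03, -0.07, -0.11 and 0.04, and their mean of -0.03 ± 0.08 (SD, n = 4 pairs) was smaller than their spread. It was the member with the most reads, 9093 to 13478 per library. The 2 neighbours thus gave different descriptions, a like fall in every pair for Slc38a1 and no common direction for Slc38a2.

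Slc1a4 and Slc1a5 exchange neutral amino acids with sodium, Slc1a4 mainly alanine, serine and cysteine and Slc1a5 also glutamine. Slc1a4, at chr11:20302180-20332713, measured 704, 1341, 1532 and 900 units in vehicle and 591, 932, 1144 and 704 units in acetate. Its differences were -0.25, -0.52, -0.42 and -0.35, a mean of -0.39 ± 0.11 (SD, n = 4 pairs), or 23.6% lower. Replicate 1 was lowest and replicate 3 highest in both groups.

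Slc1a5, at chr7:16781340-16798274, measured 4232, 2783, 3232 and 1329 units in vehicle and 3848, 2173, 2665 and 1077 units in acetate. Its differences were -0.14, -0.36, -0.28 and -0.30, a mean of -0.27 ± 0.09 (SD, n = 4 pairs), or 17.0% lower. Here replicate 1 was highest and replicate 4 lowest, unlike Slc1a4. The vehicle libraries alone differed 3.18-fold from lowest to highest, the widest span among the members.

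Slc6a9 takes up glycine, an amino acid of glutathione. Its gene spans chr4:117834506-117875198 on the plus strand. It measured 379, 912, 1038 and 761 units in vehicle and 297, 604, 778 and 512 units in acetate. Its differences of -0.35, -0.59, -0.42 and -0.57 gave a mean of -0.48 ± 0.12 (SD, n = 4 pairs), or 28.4% lower, the largest among the members. The fewest reads behind any member's value were the 379 reads of Slc6a9 in acetate replicate 1, with an exact 95% Poisson interval of 342 to 419 that covers counting error only. Of its exon bases 27.8% also lie in Ccdc24 on the other strand, which measured 1.36 to 6.87 units. A further 46 bases (0.895%) lie in B4galt2, also on the other strand, which measured 500 to 695 units and was lower in 4 of 4 pairs, by 0.12 on average. The part of either gene in the value of Slc6a9 was not tested, and the sources used here do not say if counting kept strand apart.

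**Figure D3:**
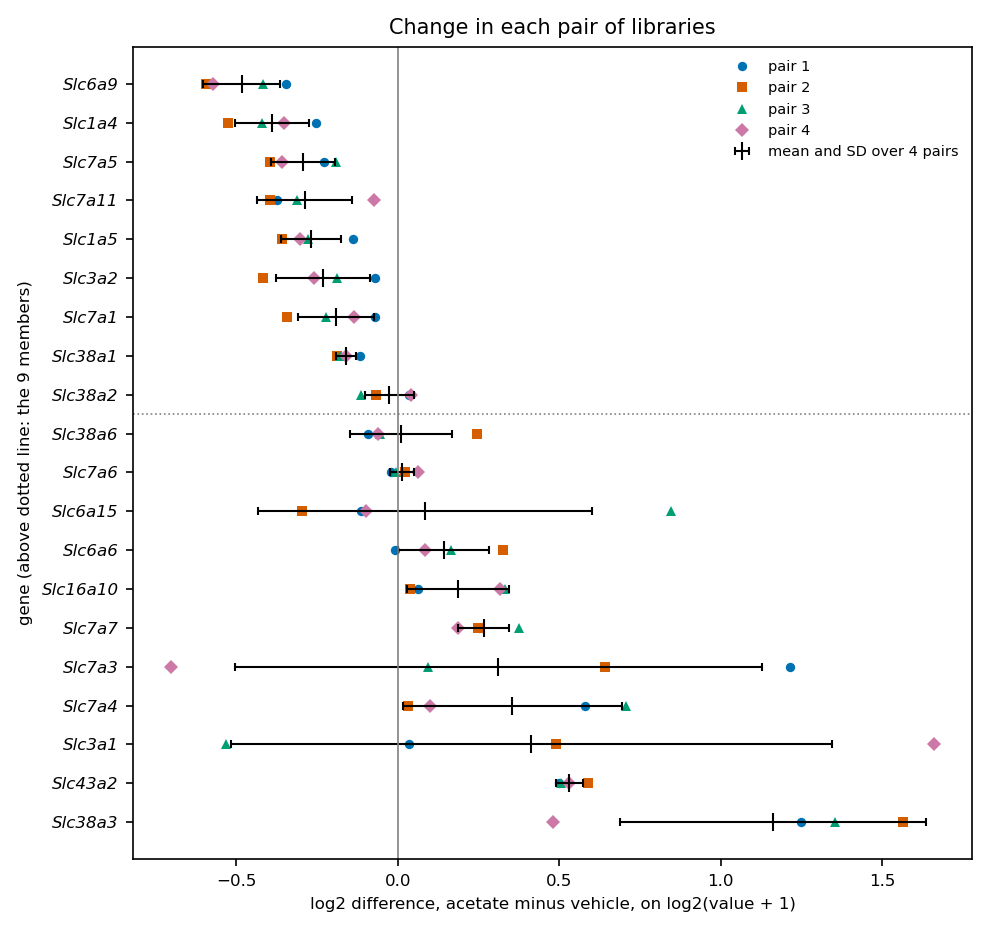
Log2 difference of acetate minus vehicle (x axis) in each of the 4 pairs for the 9 measured members, above the dotted line, and for the other plasma membrane amino acid transporters with a mean above 10 units, below it. Bars show the mean and SD over 4 pairs. The means of the 9 members run from -0.48 for Slc6a9 to -0.03 for Slc38a2, and Slc43a2 and Slc38a3 lie to the right of 0 in all 4 pairs.

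The members' levels were also compared between the 4 numbered experiments. Replicate number and treatment are balanced in this design, but the test divides by the spread that remains after both, and a choice on the paired difference favours genes with a small remainder. Its calls of members are therefore a description. The limma F-test of the replicate coefficients, with treatment as covariate, called all 9 members, 8 without replicate 4 (Slc7a1 did not pass). It called 58.2% of all genes and 85.9% of the genes with a mean above the table's median, so nothing particular to the members is read from their count. The replicate number held 70.1% to 95.5% of the variance of the members, with a median of 82.3%, against 81.9% over all genes and 92.4% over genes with a mean above the table's median. The median remainder was 1.21% over the members and 2.89% over those more abundant genes. Treatment held a median of 16.4% over the members and 3.7% over all genes, but the members were chosen for it.

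The members were sorted by the replicate in which they were lowest. Replicates 1 and 4 also stood apart over all genes, and the share of all genes lowest in either was not counted. In Slc7a11, Slc1a4 and Slc6a9 replicate 1 was lowest, at -1.01, -0.53 and -0.86 on the log2 scale from each gene's own mean. In the other 6 replicate 4 was lowest, from -0.18 for Slc38a2 and Slc38a1 to -1.02 for Slc1a5. Of these, Slc7a5 and Slc3a2 were highest in replicate 3 and the rest in replicate 1. Slc1a5 also had the highest value of any member in replicate 1, at 0.73 above its mean. Genes of the same family could differ or be alike. Slc1a4 and Slc1a5 were on opposite sides in replicate 1, while Slc38a1 and Slc38a2 were both highest in replicate 1 and lowest in replicate 4.

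Over the 8 libraries, which come from 4 experiments and share them in pairs, Slc7a5 and Slc3a2 had a Pearson r of 0.97 between their log2 levels. Slc1a4 and Slc6a9 had an r of 0.94, and Slc7a11 and Slc6a9 an r of 0.88. Slc7a11 and Slc38a2 ran in opposite directions, with an r of -0.79. Atf4, whose log2 level was lowest in replicate 4, at -0.92, had an r of 0.98 with Slc3a2, of 0.92 with Slc7a5 and Slc7a1, and of -0.09 with Slc7a11. They are descriptions of libraries in which the replicate number held most of each member's variance.

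**Figure D4:**
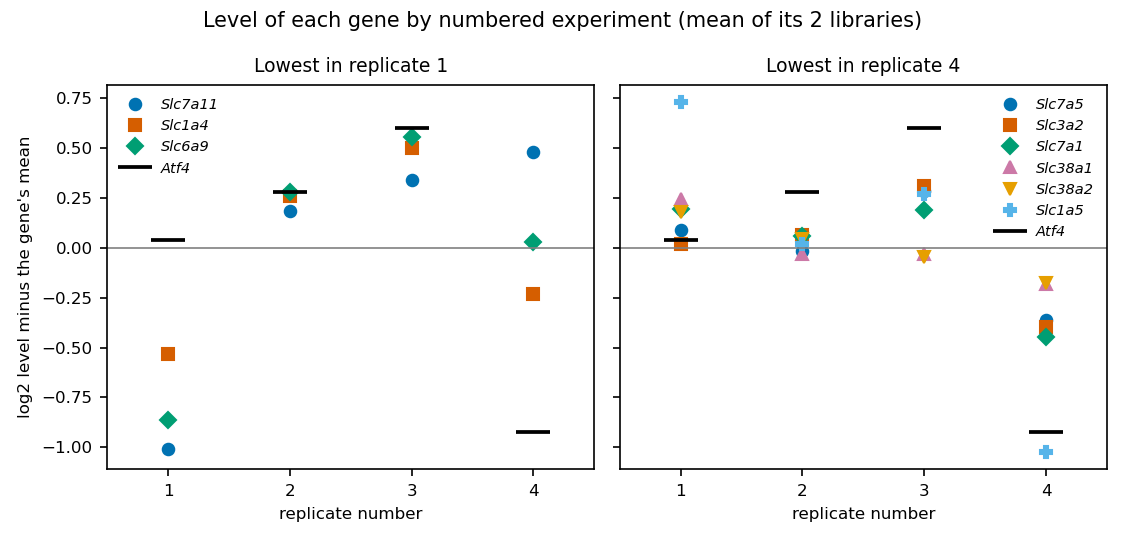
Log2 level of each member minus its own mean (y axis) for the 4 replicate numbers (x axis), each point the mean of a vehicle and an acetate library, with Atf4 as black bars in both panels. The 3 genes on the left are lowest in replicate 1 and the 6 on the right are lowest in replicate 4, as is Atf4.

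To place the genes on a common scale, units were divided by the kilobases of all annotated exons. In vehicle, Slc7a5 was highest with 1761 ± 275 units per kilobase (SD, n = 4). Slc3a2 followed with 1158 ± 226 and Slc38a2 with 1055 ± 109 units per kilobase, and Slc1a5 stood at 693 ± 289. Slc7a1 had 361 ± 70.9, Slc1a4 285 ± 97.6 and Slc38a1 242 ± 28.3 units per kilobase. Slc6a9 with 150 ± 55.6 and Slc7a11 with 97.5 ± 34.2 units per kilobase were lowest.

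Of the 8 neighbouring pairs in that order, Slc38a1 and Slc6a9 were the only pair whose vehicle ranges did not overlap. Within single libraries the order was firmer: each neighbour was above the next in 4 of 4 vehicle libraries, except Slc3a2 over Slc38a2 in 2 and Slc1a4 over Slc38a1 in 3. With the longest transcript as length, Slc38a2 moved above Slc3a2 and Slc38a1 above Slc1a4. Slc7a5 remained highest and Slc7a11 lowest by both lengths. The 9 genes together took 0.172% ± 0.0235 of a vehicle library's reads and 0.152% ± 0.0210 of an acetate library's (SD, n = 4).

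**Figure D5:**
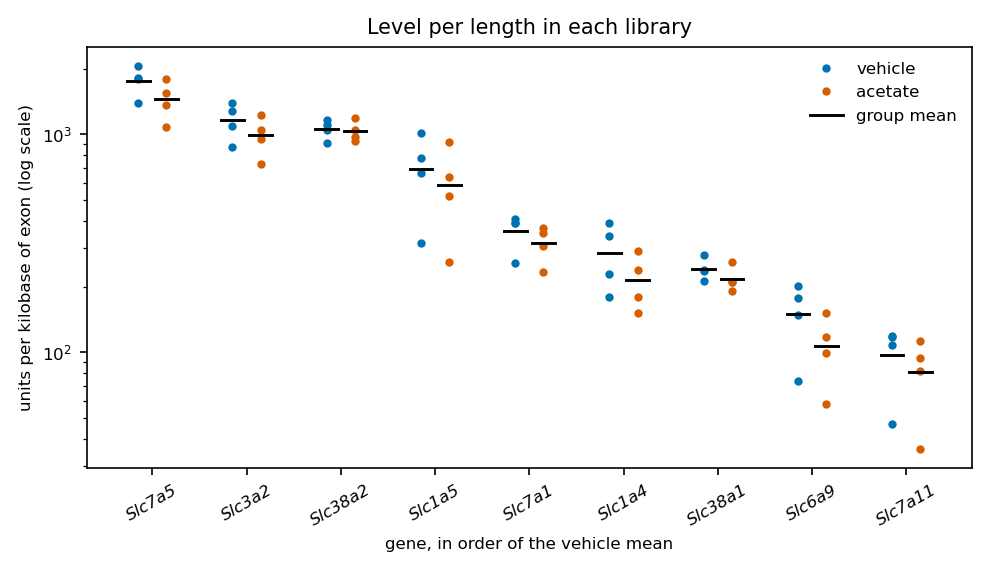
Units per kilobase of exon (y axis, log scale) of the 9 measured members in each vehicle and acetate library, ordered by the vehicle mean; black bars are group means over 4 libraries. Vehicle means fall from 1761 for Slc7a5 to 97.5 for Slc7a11.

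Of 37 other plasma membrane carriers of amino acids written into a list, 19 were measured. With the replicate block 2 of the 19 rose with acetate, Slc43a2 and Slc38a3, and 0 fell, where all genes gave 5.99% and 2.65%. The same 19 gave 0 calls without the block. Their median was 0.27 on the log2 scale, 6 were higher in all 4 pairs, against 16.7% of all genes, and 0 were lower in all 4, against 11.4%. Several of them rest on few reads. The 19 are carriers left after the members were chosen for being lower, so few falls among them were favoured by that choice. Nothing is read from these counts beside the shares over all genes.

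Slc43a2, a carrier of leucine and other large neutral amino acids from the family of Slc43a1, rose. It measured 127, 582, 521 and 930 units in vehicle and 180, 876, 740 and 1343 units in acetate. The differences of 0.50, 0.59, 0.51 and 0.53 gave a mean of 0.53 ± 0.04 (SD, n = 4 pairs; blocked limma SE 0.0432, adjusted p = 0.000101). Leaving out a pair at a time kept it past the threshold, with an adjusted p of at most 0.0124. Without the block the groups overlapped and it did not pass (adjusted p = 1.00).

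Slc38a3, a glutamine carrier of the family of Slc38a1 and Slc38a2, rose from 12.5 ± 6.62 to 29.7 ± 17.4 units (SD, n = 4), by 1.16 on the log2 scale (blocked limma SE 0.241, adjusted p = 0.0127). It was higher in 4 of 4 pairs but rests on 4 to 62 reads per library, and it lost its call without replicate 2 (adjusted p = 0.101) or replicate 3 (adjusted p = 0.106). The taurine carrier Slc6a6, the most abundant of the 19, stood at 5375 ± 1785 units in vehicle and 5833 ± 1517 in acetate and did not pass (adjusted p = 0.0711). It did pass in blocked fits with edgeR (adjusted p = 0.0373), above a mean of 10 units (0.0325) or without replicate 1 (0.0164). Slc7a2, another of the 19, was higher in 4 of 4 pairs, by 1.10, but did not pass (blocked limma, adjusted p = 0.0561). It passed only with a pseudocount of 5 (blocked limma, adjusted p = 0.0344) and rests on 1 to 17 reads per library. Slc6a6 and Slc7a2 are named here after their values were seen.

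Among 211 further genes named as solute carriers, 18 rose and 5 fell with the block (8.53% and 2.37%, where all genes gave 5.99% and 2.65%). With median-of-ratios scaling 16 rose and 7 fell, where 1000 and 821 of all 20189 genes did. The median over the 211 was 0.05 with library-total scaling. Carriers of amino acids in lysosomes and mitochondria were read from a list of 24, of which 22 were measured. In that list 2 genes rose and 0 fell, where all genes gave 5.99% and 2.65%. Slc15a4, which moves histidine and small peptides out of lysosomes, rose from 425 ± 72.4 to 492 ± 97.2 units, by 0.20 (blocked limma, adjusted p = 0.0232), and Slc38a10, a relative of Slc38a2, rose by 0.11 (adjusted p = 0.0273). Slc15a4 passed in none of the fits without a pair, with an adjusted p from 0.0637 to 0.12. Slc38a10 did not pass without replicate 2, 3 or 4, with an adjusted p from 0.09 to 0.17, nor with median-of-ratios scaling (adjusted p = 0.0625). With DESeq2 neither passed, at an adjusted p of 0.137 for Slc15a4 and 0.133 for Slc38a10.

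A list of 14 genes around cystine and glutathione, all measured, held enzymes of glutathione synthesis, use and breakdown, the thioredoxin reductase Txnrd1 and the regulators Nfe2l2 and Keap1. With the block 4 fell and 1 rose, where all genes gave 2.65% and 5.99%. Like the other lists, it was written with earlier results of these data known. Nothing is therefore read from its count beside those shares. Chac1, an enzyme that degrades glutathione and a known target of Atf4, fell from 626 ± 438 to 390 ± 262 units, by 0.66 on the log2 scale (blocked limma, adjusted p = 0.000688). Gclc, the catalytic subunit of the enzyme that starts glutathione synthesis, fell by 0.33 (adjusted p = 0.000761) and was lower in 4 of 4 pairs. Gpx1, a peroxidase that uses glutathione, fell by 0.30 (adjusted p = 0.00129).

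The remaining 2 calls of that list were Gclm, the modifier subunit beside Gclc, which fell by 0.20 (adjusted p = 0.00383), and Nfe2l2, the factor that drives many antioxidant genes, which rose by 0.13 (adjusted p = 0.0193). Both are named here after their values were seen. The 4 genes that fell passed in each fit without a pair, and Nfe2l2 lost its call without replicate 2, 3 or 4 (adjusted p from 0.058 to 0.135) and with DESeq2 (adjusted p = 0.128). Gss, which completes glutathione, stood at 330 ± 50.9 units in vehicle and 342 ± 45.4 in acetate and did not pass (adjusted p = 0.657). The members of the list that fell include enzymes of both synthesis and breakdown.

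Sensors of amino acids and their effectors were read from a list of 42, of which 40 were measured. With the block 5 rose and 5 fell, where all genes gave 5.99% and 2.65%. With median-of-ratios scaling 4 rose and 8 fell, where 1000 and 821 of all 20189 genes did. This list too was written with earlier results known, so nothing is read from these counts. Atf4 measured 4529, 6033, 7345 and 2573 units in vehicle and 4102, 4287, 5503 and 1900 units in acetate. Its differences of -0.14, -0.49, -0.42 and -0.44 gave a mean of -0.37 ± 0.16 (SD, n = 4 pairs; blocked limma, adjusted p = 0.00103). Atf4 passed in each fit without a pair, with an adjusted p of at most 0.0409.

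Rragd, a small GTPase that helps place the growth kinase mTOR on lysosomes, rose by 1.18 (blocked limma, adjusted p = 0.00592). It rests on 2 to 69 reads per library, and without replicate 2, 3 or 4 its adjusted p was 0.0528 to 0.0594. Sesn2, a leucine sensor and a known target of Atf4, fell by 0.51 (adjusted p = 0.00442) and missed the threshold without replicate 3 (adjusted p = 0.0705). Castor2, of the family of arginine sensors, rose from 727 ± 102 to 937 ± 156 units (adjusted p = 0.000355) and passed in each fit without a pair. The other calls of the list were Ddit4, Sesn3 and Castor1, which rose, and Cebpg, Ppp1r15b and Gcn1l1, which fell. Ddit4 rose by 0.11 (blocked limma, adjusted p = 0.0412) and did not pass in any fit without a pair. Ddit3, Nupr1, Ppp1r15a and Cebpb did not pass (blocked limma, adjusted p from 0.25 to 0.591). Castor2 and the genes after it are named here after their values were seen.

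Finally, the genes whose level most resembled the mean log2 level of the 9 members were sought among 10085 genes with a mean above the table's median of 116.9 units. Over the 8 libraries these were Tln1 with a Pearson r of 0.99, then Asns, Tsg101, Pigt, Gemin2 and Stard3nl with an r of 0.97 each. Asns, the enzyme that makes asparagine, measured 5322, 7427, 8012 and 4391 units in vehicle and 4368, 4827, 6790 and 2761 units in acetate. Tln1, which links integrins to actin, had 11307, 12507, 13222 and 10107 units in vehicle and 10126, 10894, 11710 and 9425 units in acetate. The mean is taken over genes chosen on the acetate contrast, so no test is given for these 6.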

How the data were processed

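RNA from 4 vehicle and 4 acetate libraries of 4T1 cells was sequenced after a stranded mRNA preparation. Per the labels and the published methods, reads were aligned to GRCm38 and counted with STAR (the submitters' processing notes also name HTSeq). Versions and the use of strand are not given in the sources used here. What the authors deposited is a signal, reads over the library total scaled to 20000000 units, for genes expressed in at least 4 libraries. Of the values in each library, 99.99% or more were whole multiples of 1 read (within 0.02 reads), and these reads were used for edgeR 4.0.16 and DESeq2 1.42.0 as alternatives.

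The members and lists were chosen with earlier results of these data known. Identifiers were matched to GENCODE M21 (20004 of 20189 had a symbol). Limma 3.58.1 in R 4.3.3 (lmFit, then eBayes with trend; two-sided) was run on log2(value + 1), a scale that understates the change of low genes. P-values were adjusted after Benjamini and Hochberg over all genes, at a threshold of 0.05. The main fit has no term for pairs, since the study's ranking was also unpaired. The labels give libraries of the same number a common code. Because of that code the numbers were taken as pairs, and values with a replicate block stand beside those without. Over 18188 genes, deviations from the group means correlated between same-numbered libraries at 0.81, 0.27, 0.20 and 0.69 for replicates 1 to 4. The correlation between libraries of different numbers was not computed, so these values do not test the pairing. The replicate effect was tested by limma's F-test with treatment as covariate. Fits were tested on simulated data. No 2 libraries held equal values for more than 4.75% of genes.

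Named genes were all members, other plasma membrane carriers called with the block, up to 3 called genes of each other list by size of change, Atf4, and the 6 genes most like the members' mean. Alternatives were pseudocounts of 0.1 and 5, a filter at a mean of 10 units, median-of-ratios scaling, the block, both count tools, the longest transcript as length, and leaving out each library or pair.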

Additional observations from a re-analysis of the deposited data

Results flagged for a closer look

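Among 24 groups of 4 libraries tested (the 9 measured members, Slc43a2, Slc38a3 and Atf4 in each group), 2 held a library far from the others, where chance gives about 1.2. Slc7a11 in vehicle replicate 1 measured 651 units against 1501 to 1652 in the other vehicle libraries, a gap of 0.849 of the whole range. The acetate library of the same number was also the lowest of its group, at 502 units. Slc7a1 in vehicle replicate 4 measured 2948 units against 4491 to 4717 in the others, a gap of 0.872 of the range, and acetate replicate 4 was lowest as well, at 2687 units.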

How the results depend on the processing

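The block decided the count of calls. Over all genes 0 passed without it (7 with DESeq2), and with the replicate block 1744 passed, or 1126 with DESeq2, 2400 with edgeR, 2263 above a mean of 10 units, 1821 with median-of-ratios scaling and 1764 with a pseudocount of 5. The calls went 69.3% upward with library-total scaling and 54.9% upward with median-of-ratios scaling. The 95 measured genes of the 4 other lists gave 0 calls without the replicate block, 19 with it, and 14, 27, 28, 20 and 21 under those settings in the same order. Of the members 0 passed without the replicate block and 8 in each of those 6 blocked fits, the same 8 genes. Because the members were picked on this contrast, their calls are descriptions. Nothing is read from how long they last over settings. Fits that left out a library or a pair gave 0 to 1662 calls over all genes, 0 to 21 in the other lists and 0 to 8 among the members, the 0 in unblocked fits. With the block, the members' calls numbered 8 without pair 1, 5 without pair 2 (Slc7a11, Slc3a2 and Slc7a1 lost), 4 without pair 3 (those and Slc38a1 lost) and 6 without pair 4 (Slc3a2 and Slc7a1 lost), and calls over all genes were 1662, 617, 409 and 539 without pairs 1 to 4. The replicate effect gave 6199 to 11610 calls over all genes without a pair (6199 without pair 1) and 8 to 9 among the members. The members' median stayed between -0.29 and -0.24. Of 63 values under other pseudocounts, other scaling or without a pair, 1 turned sign (Slc38a2 without replicate 3, 0.003), and of 72 unblocked values without 1 library 5 did. These were Slc7a11 without acetate replicate 1 (0.06), Slc1a5 without acetate replicate 4 (0.08) and Slc38a2 in 3 of the 8 fits. The members had 379 reads or more in each library, while the few reads of Slc38a3 and Rragd limit their precision. The cause of these changes was not tested.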
